A study of Mus musculus with 12 samples.

Results

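A group of 9 transcription factor genes that act in blood progenitors were followed through doxycycline (Dox) induction of Sox7 in mouse haemogenic endothelium, the endothelial cells that give rise to blood. The genes were Nfe2, Myb, Ikzf1, Ikzf2, Bcl11a, Mecom, Hhex, Meis1 and Hlf. They were taken by gene name from the deposited count and RPKM tables, which hold 41128 genes, and all 9 were found once in each table. RNA had been sequenced after FLK1 sorting of embryoid bodies at day 3.5 and a further 48 h of the sorted cells in liquid blast medium. With Dox there were 2 libraries each at 6, 12 and 24 h of 1 µg/ml Dox, and without Dox there were 2 libraries each at the same hours, 12 libraries in all. Every library came from iSox7 cells, a derivative of the Ainv18 mouse embryonic stem cell line with a Dox-inducible Sox7. No library came from cells that lack the inducible Sox7, so an effect of Dox itself and an effect of Sox7 cannot be told apart. Nothing in the labels says that the 2 libraries of a group were separate cultures, so the p-values measure the spread between these libraries, which may be technical.

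As background, haemogenic endothelial cells switch on a set of DNA-binding factors as they turn into blood progenitors, and lower many endothelial genes. NFE2 pairs with small MAF proteins to drive megakaryocyte and platelet genes, and MYB keeps progenitors growing and is needed for definitive blood formation. The zinc-finger proteins Ikaros (Ikzf1), Helios (Ikzf2) and BCL11A recruit the NuRD chromatin complex and shape lymphoid and erythroid fates, BCL11A being best known as a repressor of fetal globin in humans. MECOM (EVI1), MEIS1, a partner of HOX and PBX proteins, and HLF are known for their part in keeping haematopoietic stem cells, and HHEX acts in both endothelial and blood cell development. SOX7 is a SOX-F factor of endothelium and of the earliest blood precursors.

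Promoter sequence is shown for Myb and Ikzf1, because Myb was among the members that were lower with Dox at the first hour and Ikzf1 was the member whose Dox effect changed most between hours. The sequences are the 250 bases upstream of annotated starts in RefSeq (build GRCm38.p6), for those starts whose window overlaps no exon of the same strand. They are written 5′ to 3′ on the gene's strand, and capitals mark GGAA or its reverse TTCC, the core of ETS factor sites. The Myb window lies at chr10:21160985-21161234 on the minus strand, and the Ikzf1 windows lie at chr11:11685675-11685924 and chr11:11689927-11690176 on the plus strand. Both Ikzf1 windows lie inside the span of the gene as deposited, which begins at 11685003.
Myb: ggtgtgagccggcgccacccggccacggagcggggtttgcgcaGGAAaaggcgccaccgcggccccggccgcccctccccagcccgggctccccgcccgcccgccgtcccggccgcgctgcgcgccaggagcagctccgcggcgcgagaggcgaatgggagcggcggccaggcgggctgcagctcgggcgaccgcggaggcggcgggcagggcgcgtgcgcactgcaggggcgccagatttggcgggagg
Ikzf1 upstream start: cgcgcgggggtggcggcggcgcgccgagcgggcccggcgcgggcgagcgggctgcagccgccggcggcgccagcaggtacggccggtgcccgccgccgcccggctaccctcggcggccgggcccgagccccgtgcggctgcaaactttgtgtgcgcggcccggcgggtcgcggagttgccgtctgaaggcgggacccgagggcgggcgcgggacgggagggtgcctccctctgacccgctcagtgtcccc
Ikzf1 downstream start: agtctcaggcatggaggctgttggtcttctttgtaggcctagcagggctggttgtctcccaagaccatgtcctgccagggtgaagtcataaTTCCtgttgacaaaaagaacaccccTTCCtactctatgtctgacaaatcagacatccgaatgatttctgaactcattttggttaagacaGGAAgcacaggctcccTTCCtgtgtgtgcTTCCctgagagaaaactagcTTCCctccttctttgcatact
The Myb window is 81.2% G or C and holds 1 such core. The 2 Ikzf1 windows are unlike each other: the upstream one is 82.0% G or C and holds 0 cores, and the downstream one is 47.6% G or C and holds 6 cores. Over all 9 windows of the 7 members with an entry in the RefSeq table, 8 windows hold GGAA or TTCC, against 93.4% of the 32851 windows of all genes. On either strand, TGTGGT, the RUNX core, is in 1 of 9 windows (Meis1), against 14.0% of all windows. On either strand, AACAAT, a SOX core, is in 0 of 9 windows, against 9.42% of all windows. The core searched for GATA factors, again on either strand, was AGATAA, which is in 0 of 9 windows, against 9.99% of all windows. A match of this kind is a description of letters only.

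The libraries held between 13485804 and 35250074 counts, and each group had 1 library of at most 15429846 counts and 1 of at least 27516106 counts. Sox7 itself averaged 88.0, 106 and 92.2 RPKM (reads scaled by the authors for gene length and library size) with Dox at 6, 12 and 24 h, against 22.3, 17.4 and 14.6 RPKM without Dox, so the induction matched the labels in every library. This reading cannot separate the inducible from the native Sox7. Markers of the labelled cell type were detected in every library. The 10 endothelial markers summed to 2410 to 2990 CPM (counts scaled to the library total) with Dox and 2070 to 2620 CPM without. The 5 haemogenic endothelium markers were Kit, Runx1, Gfi1, Itga2b and Tal1. They summed to 387 to 441 CPM with Dox and 470 to 575 CPM without, and were lower with Dox at every hour. The 10 smooth muscle and mesenchyme markers summed to 7280 to 9440 CPM with Dox and 7830 to 10300 CPM without. Acta2 (3990 to 5380 CPM per library) and Col1a1 (1090 to 2720 CPM) were the largest parts, while Myh11 reached at most 1.04 CPM. Whether separate cells or the endothelial cells held these RNAs cannot be told from bulk samples. The 8 lymphoid markers summed to 8.25 to 13.9 CPM with Dox and 5.83 to 10.3 CPM without, most of it Ebf1, while Cd3e, Cd3g and Pax5 were at 0 counts in all 12 libraries. Pluripotent markers summed to 3.38 to 4.67 CPM with Dox and 3.41 to 5.07 CPM without, cardiac markers, mainly Hand1, to 427 to 499 and 467 to 538 CPM, and endoderm and liver markers, mainly Sox17, to 56.5 to 70.8 and 60.8 to 66.3 CPM.

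The deposited tables place the 9 protein-coding genes on build GRCm38. Nfe2 lies on chromosome 15 from 103248212 to 103258403, Myb on chromosome 10 from 21124936 to 21160905 and Ikzf2 on chromosome 1 from 69531214 to 69687245, all on the minus strand. Mecom lies on chromosome 3 from 29951299 to 30548008, minus strand, and Hhex on chromosome 19 from 37434810 to 37440731, plus strand. Chromosome 11 carries Ikzf1 (11685003 to 11772926, plus), Meis1 (18879817 to 19018985, minus), Bcl11a (24078056 to 24174123, plus) and Hlf (90336536 to 90390895, minus). Values are given per gene and do not separate isoforms.

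All 9 members passed the filter on low counts, each with more than 0.466 CPM in all 12 libraries, and 15347 genes were tested in all. On the RPKM scale, which allows levels to be compared between genes, Hhex was the most abundant member with a median of 15.8 RPKM over the 12 libraries. Nfe2 followed with a median of 10.9 RPKM, then Ikzf1 with 6.81, Mecom with 6.41, Myb with 4.92, Ikzf2 with 3.52 and Meis1 with 2.38 RPKM. Bcl11a with a median of 0.298 RPKM and Hlf with 0.207 RPKM were far below the others, and rested on 23 to 174 counts and 11 to 60 counts per library. From Hhex down to Ikzf2 the ranges of neighbours in this order overlapped over the 12 libraries, as did those of Bcl11a and Hlf. Meis1 was apart from its neighbours, below every value of Ikzf2 and above every value of Bcl11a. In 6 members another annotated gene overlaps the span, but none of those genes passed the filter and none exceeded 7 counts in a library.

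With Dox, Nfe2 and Myb were lower from 6 h on, Ikzf1 from 12 h and Ikzf2 at 24 h, while Mecom was higher from 12 h and Hhex at 24 h. A gene was called when its adjusted p in edgeR's quasi-likelihood test (Benjamini-Hochberg over all 15347 genes) was under 0.05. By that rule 2 of 9 members were lower and 0 higher at 6 h, where 0.717% and 0.821% of all tested genes were called lower and higher. At an unadjusted p under 0.05, 4 members were lower and 1 higher at 6 h, and DESeq2 and limma both called the same numbers as edgeR, 2 lower and 0 higher. At 12 h, 3 members were lower and 1 higher, beside 3.51% and 3.26% of all genes, and at 24 h 4 were lower and 2 higher, beside 6.52% and 4.5% of all genes. The median log2 fold change of the 9 members, Dox over no Dox, was -0.18, -0.22 and -0.23 at 6, 12 and 24 h, against 0.005, -0.01 and -0.009 over all tested genes. These are bulk samples, so fewer cells that express a gene and less of its RNA per cell cannot be told apart.

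**Figure D1:**
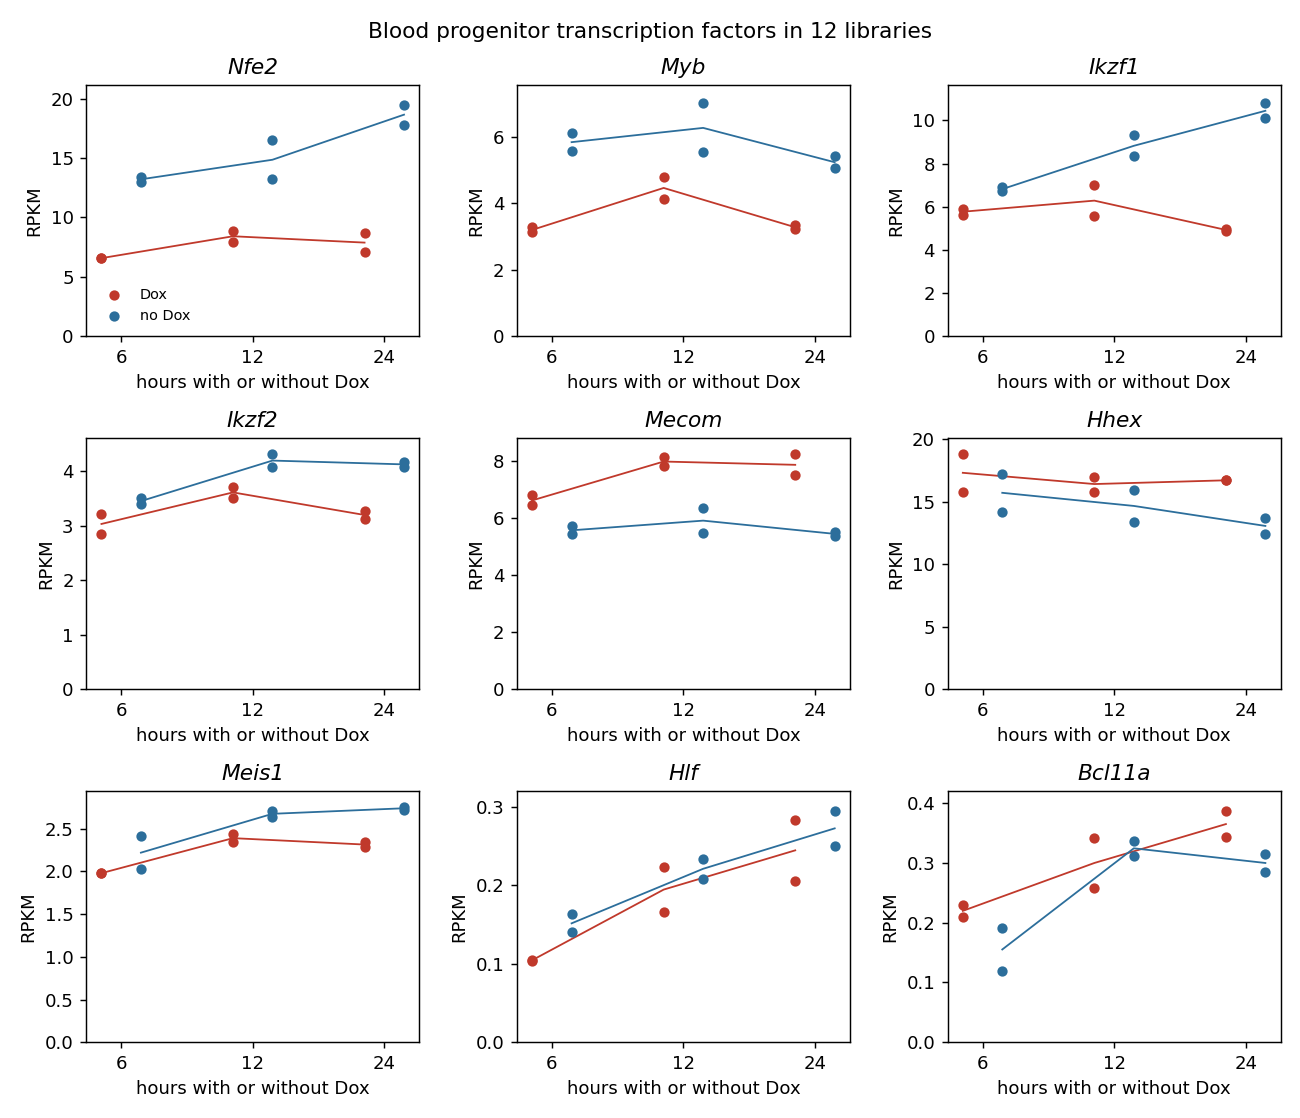
RPKM (y axis, from 0) of each of the 9 factors in every library by hour (x axis), with Dox in red to the left of no Dox in blue; points are libraries and lines join the group means. Dox points of Nfe2, Myb, Ikzf1, Ikzf2 and Meis1 lie below the untreated points at every hour and those of Mecom lie above them, with no overlap. Meis1 was not called at any hour.

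Nfe2, the megakaryocyte and erythroid bZIP factor, had the largest log2 fold change in size of the 9 at each hour. It stood at 6.53 and 6.58 RPKM with 6 h of Dox, against 13 and 13.4 RPKM without. At 12 h its levels were 8.87 and 7.93 RPKM with Dox, against 16.5 and 13.2 RPKM without. By 24 h they were 8.67 and 7.06 RPKM with Dox, against 19.5 and 17.8 RPKM without. Every Dox library of Nfe2 was therefore below every untreated library, whatever the hour, and the highest levels were those of untreated cells at 24 h. The log2 fold change, Dox over no Dox, was -0.99 ± 0.10 (standard error; edgeR adjusted p = 3.7e-07) at 6 h, -0.79 ± 0.10 (1.8e-06) at 12 h and -1.20 ± 0.10 (1.5e-10) at 24 h, which is 0.504, 0.578 and 0.435 of the untreated level.

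Myb, the progenitor factor named after the avian myeloblastosis oncogene, had 3.12 and 3.27 RPKM with 6 h of Dox, against 6.12 and 5.56 RPKM without. At 12 h it had 4.79 and 4.13 RPKM with Dox, against 7.01 and 5.53 RPKM without. At 24 h the values were 3.21 and 3.34 RPKM with Dox, against 5.41 and 5.06 RPKM without. The 2 groups did not overlap at any hour, and the gap was narrowest at 12 h, where the lower untreated library came closest to the Dox libraries. Its log2 fold changes were -0.86 ± 0.11 (edgeR adjusted p = 1.8e-05) at 6 h, -0.45 ± 0.11 (0.0074) at 12 h and -0.66 ± 0.11 (8.6e-05) at 24 h. The 12 h call was lost without untreated replicate 1 or without Dox replicate 2 and in both limma fits, with adjusted p-values between 0.00065 and 0.16 over 13 alternatives. Leaving out the others did not end it.

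Ikzf1, which encodes Ikaros, began close to the untreated level and moved away from it. At 6 h it was at 5.91 and 5.62 RPKM with Dox, against 6.74 and 6.89 RPKM without, a log2 fold change of -0.22 ± 0.09 that was not called (edgeR adjusted p = 0.32). At 12 h it was at 7.0 and 5.56 RPKM with Dox, against 9.31 and 8.34 RPKM without, and at 24 h at 4.88 and 4.96 RPKM with Dox, against 10.1 and 10.8 RPKM without. Dox libraries were below untreated ones at each hour, and by 24 h they were at 0.471 of the untreated level. The log2 fold change was -0.46 ± 0.09 (edgeR adjusted p = 0.00064) at 12 h and -1.09 ± 0.09 (1.3e-10) at 24 h. Ikzf2, which encodes the Ikaros relative Helios, moved less. It had 3.22 and 2.85 RPKM with Dox at 6 h, against 3.51 and 3.40 RPKM without, then 3.71 and 3.52 RPKM with Dox at 12 h, against 4.08 and 4.32 RPKM without. At 24 h it had 3.12 and 3.28 RPKM with Dox, against 4.08 and 4.18 RPKM without. Its libraries also separated at each hour, but only the 24 h difference was called, with log2 fold changes of -0.18 ± 0.08 (edgeR adjusted p = 0.39), -0.22 ± 0.07 (0.076) and -0.36 ± 0.08 (0.0012).

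Bcl11a, the remaining zinc-finger repressor, was sparsely counted. It had 0.229 and 0.210 RPKM with Dox at 6 h, against 0.191 and 0.119 RPKM without, then 0.341 and 0.258 RPKM with Dox at 12 h, against 0.311 and 0.337 RPKM without. At 24 h it had 0.343 and 0.386 RPKM with Dox, against 0.314 and 0.285 RPKM without. The groups overlapped at 12 h, and Dox libraries were above untreated ones at 6 and 24 h. None of the 3 differences was called: the 95% confidence intervals of the log2 fold change were -0.07 to 0.92 at 6 h, -0.49 to 0.32 at 12 h and -0.12 to 0.71 at 24 h.

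Mecom, the stem cell and endothelial zinc-finger factor, was the member that was higher with Dox over most of the course. It stood at 6.45 and 6.80 RPKM with Dox at 6 h, against 5.72 and 5.43 RPKM without. At 12 h it stood at 7.83 and 8.15 RPKM with Dox, against 5.47 and 6.36 RPKM without, and at 24 h at 7.50 and 8.25 RPKM with Dox, against 5.38 and 5.52 RPKM without. Each Dox library exceeded each untreated library of all hours. The log2 fold change was 0.27 ± 0.07 at 6 h, which missed the threshold (edgeR adjusted p = 0.055) and passed it with no filter on low counts and with the replicate number as a block (lowest adjusted p = 0.025, highest 0.45 over 13 alternatives). It was 0.41 ± 0.07 (edgeR adjusted p = 0.00022) at 12 h and 0.54 ± 0.07 (1.7e-06) at 24 h, or 1.45 times the untreated level.

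Hhex, a homeobox gene of endothelial and blood development, was at 18.8 and 15.8 RPKM with Dox at 6 h, against 14.2 and 17.2 RPKM without. At 12 h it was at 17.0 and 15.8 RPKM with Dox, against 13.4 and 15.9 RPKM without, and at 24 h both Dox libraries were at 16.7 RPKM, against 12.4 and 13.7 RPKM without. The groups overlapped at 6 and 12 h and separated at 24 h, the hour with the lowest untreated mean. Its log2 fold change was 0.16 ± 0.10 (edgeR adjusted p = 0.65), 0.15 ± 0.10 (0.43) and 0.36 ± 0.10 (0.018). The 24 h call was lost without either Dox library, without untreated replicate 1 and in both limma fits (adjusted p between 0.0046 and 0.18 over 13 alternatives).

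Meis1, the HOX cofactor, had 1.98 RPKM in both Dox libraries at 6 h, against 2.41 and 2.03 RPKM without. It had 2.44 and 2.34 RPKM with Dox at 12 h, against 2.71 and 2.64 RPKM without, and 2.34 and 2.29 RPKM with Dox at 24 h, against 2.72 and 2.76 RPKM without. Dox libraries lay below untreated ones at each hour, by less than the test could call: the log2 fold change was -0.17 ± 0.09 (edgeR adjusted p = 0.58), -0.16 ± 0.09 (0.32) and -0.23 ± 0.09 (0.098). Hlf, a PAR bZIP factor of stem cells, had 0.104 and 0.105 RPKM with Dox at 6 h, against 0.140 and 0.163 RPKM without, and 0.166 and 0.223 RPKM with Dox at 12 h, against 0.208 and 0.234 RPKM without. At 24 h it had 0.206 and 0.283 RPKM with Dox, against 0.295 and 0.25 RPKM without. The groups overlapped at 12 and 24 h. No Hlf difference was called, and the 95% confidence interval of its log2 fold change was wide, from -1.30 to 0.32 at 6 h and from -0.81 to 0.48 at 24 h.

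**Figure D2:**
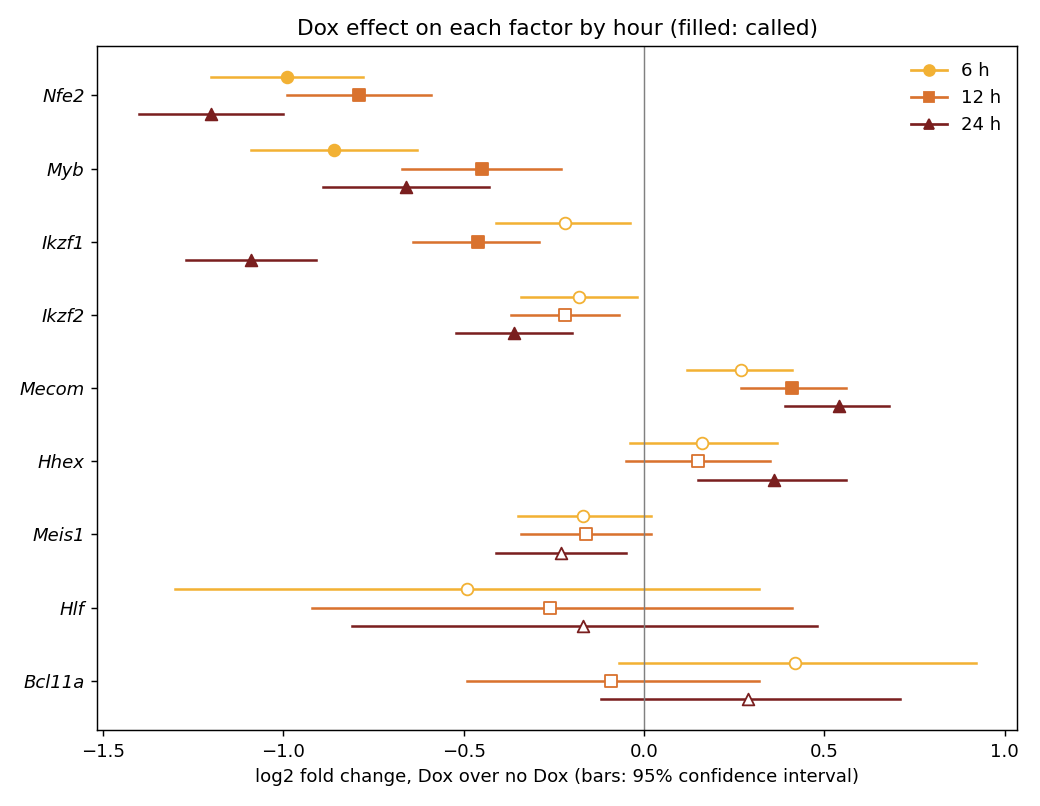
Log2 fold change, Dox over no Dox (x axis), of each factor (y axis) at 6, 12 and 24 h, with 95% confidence intervals from the edgeR fit; filled symbols passed an adjusted p of 0.05. Nfe2 and Myb are filled at every hour, Ikzf1 moves left to -1.09 at 24 h, and Hlf and Bcl11a have the widest intervals. Mecom stands at 0.27, 0.41 and 0.54, and no change of its Dox effect between hours was called.

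Whether a Dox effect itself differed between hours was tested as a difference of differences. Ikzf1 was the one member for which it did. Its log2 fold change at 24 h was lower than at 12 h by a contrast of -0.62 ± 0.12 (edgeR adjusted p = 0.0046) and lower than at 6 h by -0.86 ± 0.13 (5.2e-05), so the Dox effect grew over the course. Over all genes, 1.02% had a lower Dox effect at 24 h than at 12 h, and 1.45% had a lower one at 24 h than at 6 h. The change between 24 and 12 h was not called in 5 of 17 alternatives: both limma fits, and without Dox 12 h replicate 1, untreated 12 h replicate 2 or untreated 24 h replicate 2 (adjusted p up to 0.2). The change between 24 and 6 h was called in all 17. Between 12 and 6 h, 0 of 9 members changed their Dox effect, where 0.417% of all genes did. At an unadjusted p under 0.05 it was 1 member, Myb, whose contrast of 0.41 ± 0.15 had an edgeR adjusted p of 0.31, and DESeq2 and limma called 0. For Nfe2 the contrast of 24 against 12 h was -0.41 ± 0.14 (edgeR adjusted p = 0.18), and it was called without untreated 12 h replicate 1 or without Dox 24 h replicate 1 (lowest adjusted p 0.027). The other member contrasts were not called. The 3 Dox effects share no libraries, but the contrasts between them do: both called Ikzf1 contrasts use the same 24 h libraries.

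The same values can be read along time within each treatment, although consecutive steps share the 12 h libraries. Without Dox, 3 members were higher at 12 h than at 6 h, beside 4.39% of all genes: Bcl11a by a log2 fold change of 0.98 ± 0.22 (edgeR adjusted p = 0.0054), Ikzf1 by 0.36 ± 0.09 (0.008) and Ikzf2 by 0.28 ± 0.08 (0.022). At 24 h against 12 h without Dox, 2 members were higher, beside 12.2% of all genes: Nfe2 by 0.35 ± 0.09 (0.0059) and Ikzf1 by 0.27 ± 0.08 (0.017). Ikzf1 was thus called higher in both untreated steps, and Nfe2 in the later one. With Dox, 4 members were higher at 12 h than at 6 h, beside 8.84% of all genes: Myb by 0.47 ± 0.11 (0.0042), Nfe2 by 0.34 ± 0.11 (0.022), Mecom by 0.24 ± 0.07 (0.017) and Ikzf2 by 0.24 ± 0.08 (0.029). With Dox at 24 h against 12 h, 2 members were lower, beside 5.98% of all genes: Myb by -0.44 ± 0.11 (0.0072) and Ikzf1 by -0.35 ± 0.09 (0.0072). Ikzf1 therefore moved in opposite directions over the last 12 h, down with Dox and up without, which is the contrast of 24 against 12 h given above. These step calls are less firm than the Dox calls, since each was lost when at least 1 library was left out. Meis1, higher by 0.25 ± 0.09 in the Dox step to 12 h (edgeR adjusted p = 0.054), was also called there under RLE scaling (0.046), upper-quartile scaling (0.044) and a filter of 1 CPM in 4 libraries (0.041), with adjusted p-values of 0.041 to 0.3 over 13 alternatives. The untreated step to 12 h had 1 call without either 6 h library or without 12 h replicate 2. The untreated step to 24 h had 1 higher call without either 24 h library, and without 12 h replicate 2 it had 0 higher calls and 1 lower one, Myb (-0.41, edgeR adjusted p = 0.022). The Dox step to 12 h had 2 calls without 6 h replicate 1, 1 without 6 h replicate 2 and 0 without 12 h replicate 1. The Dox step to 24 h had 0 calls without 12 h replicate 1 or without 24 h replicate 1.

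Cell type markers moved beside these genes. Counts of called markers stand beside shares over all genes of 0.717%, 3.51% and 6.52% lower at 6, 12 and 24 h. The shares higher were 0.821%, 3.26% and 4.5%. The 10 blood markers (Ptprc, Coro1a, Vav1 and others; 9 tested) summed to 140 to 151 CPM with Dox at 6 h, against 184 to 188 CPM without. At 12 h they summed to 153 to 178 CPM with Dox, against 300 to 314 CPM without, and at 24 h to 182 to 201 CPM with Dox, against 547 to 571 CPM without. So the blood sum grew in untreated cells and stayed lower with Dox, and 2, 3 and 8 of the 9 tested markers were called lower at 6, 12 and 24 h, with 1 higher at 12 h. Plek was the largest part of the blood sum (88.6 to 397 CPM per library), followed by Laptm5 (29.3 to 77.3 CPM). Ptprc, Coro1a and Vav1 reached at most 15.5, 21.5 and 8.71 CPM. The 8 megakaryocyte markers (Pf4, Gp9, Tubb1 and others) summed to 192 to 210, 201 to 232 and 284 to 294 CPM with Dox, against 260 to 267, 318 to 347 and 493 to 501 CPM without. Most of this sum was Itgb3 (172 to 429 CPM per library), while Pf4, Gp9 and Tubb1 reached at most 3.7, 2.93 and 27.2 CPM. Of the 7 tested megakaryocyte markers, 3, 2 and 7 were called lower at the 3 hours and none higher. Of 10 erythroid markers 3, 4 and 9 were called lower and 1, 2 and 1 higher at the 3 hours, and of 9 tested myeloid markers 2, 2 and 8 were lower and 1, 1 and 0 higher. The erythroid markers summed to 1320 to 1400, 2050 to 2160 and 1260 to 1530 CPM with Dox, against 1470 to 1640, 1430 to 2340 and 2440 to 2730 CPM without, and the myeloid markers to 26.8 to 30.9, 36.1 to 37.7 and 41.6 to 43.2 CPM with Dox, against 29 to 33.5, 45.6 to 48.8 and 101 to 104 CPM without. The erythroid sums overlapped at 12 h and the myeloid sums at 6 h. Of 5 haemogenic endothelium markers 2, 1 and 3 were called lower and 1 was called higher, at 24 h. Endothelial markers ran the other way, with 2, 4 and 5 of 10 called higher at the 3 hours and 1 called lower at 12 h. Smooth muscle and mesenchyme markers summed to 7700 to 7770, 7280 to 8010 and 9390 to 9440 CPM with Dox, against 7830 to 8120, 8290 to 8550 and 10100 to 10300 CPM without, with 1, 2 and 4 of 10 called lower. Cardiac markers, mainly Hand1, summed to 440 to 443, 476 to 499 and 427 to 429 CPM with Dox, against 467 to 506, 507 to 538 and 481 to 492 CPM without, with 1 and 2 of 8 called in each direction at 12 and 24 h. The part of these marker levels in the results for Nfe2, Myb, Ikzf1, Ikzf2, Mecom and Hhex was not tested. No member is in a marker list.

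**Figure D3:**
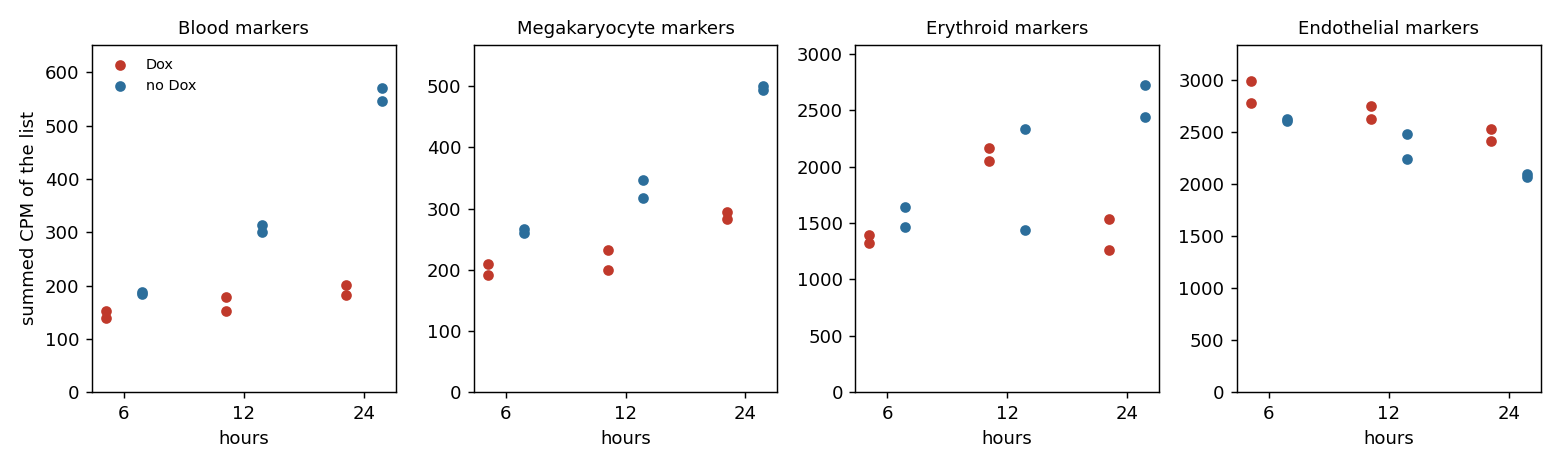
Summed CPM (y axes, from 0) of blood, megakaryocyte, erythroid and endothelial marker lists in every library by hour (x axes), with Dox in red to the left of no Dox in blue. At 24 h the blood sum, of which Plek is the largest part, is 182 to 201 CPM with Dox and 547 to 571 CPM without. Itgb3 makes up most of the megakaryocyte sum, and the endothelial sum is higher with Dox at every hour.

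Genes related to the members were then counted in 16 lists. These held relatives, protein partners and known targets of the members, and 1 list held other stem and progenitor factors. Of 84 tested genes in these lists, 9 were lower and 2 higher with Dox at 6 h, 7 lower and 5 higher at 12 h, and 15 lower and 9 higher at 24 h, with a median log2 fold change of -0.02, -0.01 and -0.02. Over all genes, 0.717%, 3.51% and 6.52% were called lower and 0.821%, 3.26% and 4.5% higher at these hours. Among the 45 tested relatives and partners of the members, in 12 lists, edgeR called 0 at 6 h (0.821% of all genes were higher and 0.717% lower), where 3 were higher and 4 lower at an unadjusted p under 0.05 and DESeq2 and limma called 0. At 12 h edgeR called 2, both higher, beside 3.26% of all genes (6 higher and 0 lower unadjusted): Prdm1 (Blimp1), a relative of Mecom, averaged 2.56 ± 0.12 RPKM with Dox and 1.74 ± 0.084 RPKM without (SD, n = 2 each), and Kmt2a (MLL1), a MYB coactivator, averaged 8.42 ± 0.27 RPKM with Dox and 7.25 ± 0.42 RPKM without. At 24 h these 2 and Mybl1, a relative of Myb, were called higher, beside 4.5% of all genes (7 higher and 2 lower unadjusted), Mybl1 with 3.73 ± 0.24 RPKM with Dox and 2.48 ± 0.33 RPKM without. The Kmt2a call was lost without Dox replicate 1 or untreated replicate 2 at 12 h and without untreated replicate 1 or Dox replicate 2 at 24 h (adjusted p 0.19 to 0.45). The Prdm1 call at 24 h was lost without Dox replicate 1 (0.055) or untreated replicate 2 (0.1). None of the 12 NuRD subunits, the small MAF partners of NFE2 or the PBX partners of MEIS1 was called at any of the 3 hours. The median log2 fold change of the NuRD list was 0.02, 0 and 0 at 6, 12 and 24 h, that of the small MAF list 0.05, 0.06 and 0.06, and that of the PBX list -0.02, 0.04 and 0.06. The other Ikaros, CNC, MEIS, PAR bZIP and BCL11 family members and the CtBP corepressors likewise held no called gene.

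The known targets of NFE2 that were called were all lower with Dox. Of 8 platelet genes that depend on NFE2, all of them tested, 2 were lower with Dox at 6 h, 2 at 12 h and 5 at 24 h, and their median log2 fold change was -0.38, -0.47 and -0.58. Over all genes, 0.717%, 3.51% and 6.52% were called lower at 6, 12 and 24 h. Tbxas1 and Selp averaged at most 0.0688 and 0.317 RPKM in any group. Hsd3b6 and Gp9, both called at 24 h, averaged 0.236 and 0.907 RPKM with Dox there, against 0.641 and 2.74 RPKM without. Leaving out each library was not run for Hsd3b6 and Gp9. Tubb1, the platelet beta-tubulin, had 2.28 and 2.49 RPKM with Dox at 6 h, against 5.05 and 4.61 RPKM without, and 5.47 and 6.16 RPKM with Dox at 24 h, against 17.8 and 16.5 RPKM without. Its levels separated at each hour, with log2 fold changes of -1.0 ± 0.17 (edgeR adjusted p = 0.00063), -1.34 ± 0.15 (6e-07) and -1.56 ± 0.13 (3.1e-10). Rab27b, which serves granule release in platelets, was lower by -0.29 ± 0.07 (0.032), -0.48 ± 0.07 (4.1e-05) and -0.39 ± 0.07 (0.00027). At 6 h the Rab27b call was lost without any 1 of the 4 libraries (0.073 to 0.37) and that of Tubb1 without untreated replicate 1 (0.062). Tubb1 and Gp9 are among the genes that also stand in the megakaryocyte marker list, so the 2 counts share genes.

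Targets of MYB were mixed. Of 9 tested, 1 was lower and 1 higher with Dox at 6 h, again 1 and 1 at 12 h, and 4 were lower and 1 higher at 24 h, with medians of -0.09, -0.25 and -0.14. Beside these, 0.717%, 3.51% and 6.52% of all genes were called lower and 0.821%, 3.26% and 4.5% higher at 6, 12 and 24 h. Mpo and Prtn3 also stand in the myeloid marker list and Kit in the haemogenic endothelium list, so these counts and the marker counts share genes. Mpo, the neutrophil peroxidase, had 2.98 and 2.18 RPKM with Dox at 6 h, against 4.19 and 3.78 RPKM without, and 2.41 and 2.42 RPKM with Dox at 24 h, against 7.45 and 7.30 RPKM without. Its log2 fold change was -0.66 ± 0.13 (edgeR adjusted p = 0.0041), -0.87 ± 0.12 (1.3e-05) and -1.60 ± 0.12 (6.7e-11). The 6 h call was lost without untreated replicate 1 (0.18) or Dox replicate 2 (0.4). Kit, the stem cell factor receptor, had 10.1 and 12.6 RPKM with Dox at 24 h, against 22.4 and 12.9 RPKM without. The untreated libraries differed widely, and the call at 24 h (-0.60 ± 0.13, edgeR adjusted p = 0.0019) was lost without the higher one, replicate 1 (-0.18, 0.36), and without Dox replicate 1 (-0.43, 0.094). Against the list, Lmo2, a bridging protein of the blood and endothelial GATA and SCL complex, was higher at 6 h (0.32 ± 0.07, edgeR adjusted p = 0.011) and 12 h (0.27 ± 0.07, 0.017), and Gata3 was higher at 24 h (0.41 ± 0.10, 0.0074). These calls were lost when 1 library was left out: Lmo2 at 6 h without either untreated library or Dox replicate 2 (0.1 to 0.23) and at 12 h without Dox replicate 1 (0.45) or untreated replicate 2 (0.18), and Gata3 without either untreated library (0.055 and 0.067). Among 6 tested targets of MEIS1 and HOX proteins, Cd34 alone was called, lower at 12 h (-0.36 ± 0.05, 1.7e-05) and 24 h (-0.48 ± 0.05, 4.1e-08).

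Of 19 other tested stem and progenitor factors, 6 were lower and 2 higher with Dox at 6 h, 3 and 3 at 12 h, and 6 and 5 at 24 h, so this wider set moved both ways. The shares of all genes called lower were 0.717%, 3.51% and 6.52% at these hours. Those called higher were 0.821%, 3.26% and 4.5%. Spi1 (PU.1), the myeloid ETS factor, had 1.31 and 1.24 RPKM with Dox at 6 h, against 2.85 and 3.01 RPKM without, and 2.31 and 1.38 RPKM with Dox at 24 h, against 7.10 and 6.90 RPKM without. Its log2 fold change of -1.82 ± 0.17 at 24 h (edgeR adjusted p = 1.5e-09) was below that of any of the 9 members. Mycn, a MYC relative, was higher at 12 h (0.27 ± 0.06, 0.0063) and 24 h (0.53 ± 0.06, 2.3e-07), and its 12 h call was lost without untreated replicate 1 (0.13) or Dox replicate 2 (0.11). Spi1 is also in the blood marker list, Tal1, Runx1 and Gfi1 are in the haemogenic endothelium list, and Erg is in the endothelial list.

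The genes whose course over the 12 libraries was most like that of each member were found by the root mean square difference of log2 CPM, centred on each gene's mean, among 12936 tested genes with proper names. For Nfe2, whose own log2 CPM spanned 1.56, they were Gata1 (0.133), P2rx1 (0.152) and Gpr56 (0.159). For Myb, with a span of 1.13, they were Gpr56 (0.177), Slc6a9 (0.181) and Epor (0.182), and for Ikzf1, with a span of 1.14, Nrgn (0.093), Clec1b (0.117) and Prkca (0.137). Gpr56 was thus near both Nfe2 and Myb. Mecom, with a span of 0.63, was nearest to Efnb2 (0.063), Cd93 (0.081) and Gdpd5 (0.082), and Hhex, with a span of 0.62, to Sh3rf1 (0.068), Cad (0.078) and Btbd3 (0.079). Ikzf2 was nearest to Tsc1 (0.064), Dusp27 (0.081) and Crb2 (0.084), and Meis1 to Camk1 (0.07), Pdgfrb (0.072) and Nfe2l2 (0.077). Hlf, with a span of 1.39, was nearest to Bcl3 (0.137), Tshz3 (0.168) and Tmem176a (0.18), and Bcl11a, with a span of 1.67, to Slc7a7 (0.227), Itpr2 (0.233) and Tiam2 (0.236). All 12 points share the same libraries and depths, and these distances are descriptions with no test. No member was among the 3 nearest genes of another.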

How the data were processed

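The authors deposited 2 tables of the 12 libraries, with raw counts of reads for each gene and with RPKM values, per the file headers. Per the labels' protocols, strand-specific libraries were made from 200 ng of RNA in 14 PCR cycles and read as 75 bases. The submitters' processing notes list Bowtie2 2.21, SAMtools 0.1.19, bcl2fastq 2.16.0.10, edgeR 3.8.5 and R 3.1.0, with build GRCm38. How reads were assigned to genes, and on which strand, is not given in the sources used here, so reads of overlapping antisense genes cannot be told apart. RPKM scaling was within 1.33% of TMM scaling.

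Counts were tested with edgeR 4.0.16 in R 4.3.3 (filterByExpr, TMM, glmQLFit, glmQLFTest) on all 12 libraries, with 1 mean per group and no replicate block. P-values were adjusted over 15347 genes, and standard errors were taken from the F statistic. Alternatives were DESeq2 1.42.0, limma 3.58.1 on log2(RPKM + 0.1), other scalings and filters, and leaving out each library. The edgeR fit was run on simulated counts with known changes. There 6.1%, 5.59% and 6.47% of calls were false in the 6, 12 and 24 h comparisons. Of simulated 1.5-fold changes, 59.1%, 71.7% and 66.7% were found, and of 2-fold changes 80%, 85.7% and 80.6%. The biological coefficient of variation was 4.71%, and replicates differed by more than sampling noise (chi-square over degrees of freedom 2.63 to 4.61). Figures used matplotlib 3.10.9.

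The members, 16 related lists and 11 marker lists were chosen with earlier results of these data known. From each related list, at most 2 called genes without overlap between libraries were named, by smallest adjusted p, plus called genes that went against their list. Other listed genes, such as Hsd3b6 and Gp9, were named for their levels or their place in a marker list. The 3 genes nearest each member were named by root mean square difference of log2 CPM (prior count 2).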

Additional observations from a re-analysis of the deposited data

Results flagged for a closer look

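The Dox effect on Ikzf1 differed between hours by a direct test of the difference. The contrast of 24 h minus 12 h was -0.62 on the log2 scale (edgeR adjusted p = 0.0046), and that of 24 h minus 6 h was -0.86 (edgeR adjusted p = 5.2e-05). Both contrasts use the same 24 h libraries. At 24 h both Dox libraries lay below both untreated libraries, as they did at 6 and 12 h by a smaller margin. The summed blood markers, of which Plek was the largest part, were 182 to 201 CPM with Dox and 547 to 571 CPM without at 24 h. The part of these markers in the Ikzf1 difference was not tested.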

How the results depend on the processing

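Over 13 alternatives for each Dox comparison, 10 of the 12 member calls were kept in every one; Myb at 12 h and Hhex at 24 h were not. No member result reversed as a call. With limma on log2(RPKM + 0.1) and log2(RPKM + 1), the genes called fell to 78 and 67 at 6 h (236 with edgeR) and to 354 and 365 at 12 h (1038 with edgeR); the cause was not tested. Both limma fits called 0 members for the change of Dox effect between 24 and 12 h, 0 for each untreated step, and 1 for the Dox step to 12 h; for the Dox step to 24 h they called 1 and 0. Leaving out a library gave 87 to 183 genes at 6 h, 404 to 747 at 12 h and 1065 to 1460 at 24 h (1690 in full), with fewer libraries in each fit; the lowest were without Dox 6 h replicate 2, Dox 12 h replicate 1 and untreated 24 h replicate 2, and only leaving out Dox 6 h replicate 1, Dox 12 h replicate 2 or either Dox 24 h library kept a count within 1.5 times. Members called then ranged from 0 to 2 for the change between 24 and 12 h, 1 to 2 for each untreated step (in the step to 24 h, without untreated 12 h replicate 2, the 1 call is Myb, lower, and both higher calls are lost), 0 to 3 for the Dox step to 12 h and 0 to 2 for the Dox step to 24 h. A lone library left in a group was taken to vary like the other groups.

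Deviations of libraries with the same replicate number correlated at -0.034, 0.052 and -0.007 at 6, 12 and 24 h. Same-numbered Dox and untreated libraries differed widely in depth at every hour, so these values cannot show whether replicate numbers pair the libraries. With the replicate block, 249, 1071 and 1722 genes and 3, 4 and 6 members were called at 6, 12 and 24 h; the added member at 6 h was Mecom. The block changed no other member call. The lowest-counted members, Hlf and Bcl11a, had the widest confidence intervals. Leaving out each library was also run for some of the named related genes, an alternative chosen after seeing the data. They were Prdm1, Kmt2a, Mybl1, Tubb1, Rab27b, Mpo, Kit, Lmo2, Gata3, Cd34, Spi1 and Mycn.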
